A study of Mus musculus with 3 samples.

Results

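The nuclear-encoded subunits of respiratory complexes III, IV and V, together with cytochrome c, were followed across single mouse heart cells sampled on 3 days after tamoxifen. The 35 genes were taken by name as structural subunits of these complexes: 8 of complex III, 12 of complex IV, 14 of complex V and the cytochrome c gene Cycs, out of 55401 mouse gene identifiers in each table. All 35 were found in all 3 tables. The 3 libraries of polyA RNA were made on the iCELL8 platform, in which stained live single cells are chosen by imaging in nanowells, and the titles name adult cardiomyocytes from heart with tamoxifen given. The genotype labels are D1_INO80_OE on day 1, D2_INO80_OE on day 2, and both D3_INO80_OE and D3_Ctrl on day 3, where no source used here says which well held which genotype. The series title names a heart with Myh6-MCM (a Cre switched on by tamoxifen, under a promoter active in cardiomyocytes) and floxed Ino80 alleles, while the genotype labels read as overexpression and the design text speaks of induction; all 3 libraries share the tamoxifen treatment. Neither the age nor the number of animals is stated in these sources, and the day 0 cells named in the design text were not analysed here.

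Complex III, or cytochrome bc1, takes electrons from ubiquinol and passes them to cytochrome c, a small soluble haem protein of the intermembrane space. Complex IV, cytochrome c oxidase, hands these electrons to oxygen, and both complexes pump protons across the inner membrane. Complex V, the ATP synthase, lets protons flow back through a ring of c subunits and couples that flow to ATP formation in its F1 head. Heart muscle lives largely on this pathway. Each of these complexes joins subunits encoded in mitochondrial DNA, of which complex III has only cytochrome b, with others encoded in the nucleus, and several complex IV subunits have a heart and muscle isoform beside one found in most tissues.

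The libraries held 1232, 1063 and 1099 wells on days 1, 2 and 3, with 487461107, 452070922 and 484369736 counts in all, and 278, 268 and 247 well barcodes were shared between days 1 and 2, days 1 and 3, and days 2 and 3. Values below come from the wells left after those of clusters named by markers of other cell types were set aside: 548, 605 and 888 wells, called the cardiomyocyte compartment, with a median of 367610, 362022 and 363220 counts per well. A level is given in CPM, the gene's counts summed over these wells and scaled to a total of 1000000 nuclear-gene counts, and a 95% interval covers counting error only. Each day is 1 library, so there is no replicate, no test of a day is possible, and day, library and any difference in handling cannot be told apart. The summed level of 14 ventricular cardiomyocyte markers was 120155, 123929 and 119989 CPM on days 1 to 3, with none of them at 0. Other lists were less even: 10 atrial markers summed to 6820, 217 and 1632 CPM (none at 0), 7 erythroid markers to 34.0, 408 and 207 CPM (1 at 0 on day 1), and 13 lymphocyte markers to 76.8, 460 and 12.1 CPM (1 and 2 at 0 on days 1 and 2). The lymphocyte sums came from a minority of wells, with upper quartiles of the wells at 2.15, 9.36 and 0 CPM. The part of these lists in the day comparisons was not tested. Cardiomyocyte RNA was not confined to this compartment: in macrophage-like wells Myh6, the cardiac myosin heavy chain gene, lay at 82.4%, 77.1% and 84.8% of its compartment level, so a gene's presence in a well does not show that the cell of that well expressed it. The compartment itself was not 1 cluster: 72.6% of its day 1 wells lay in a cluster led by Trbc2 and Ccl5, 94.4% of its day 2 wells in one led by Igkc, and its day 3 wells in one led by Gpr22 and Pln (52.3%) and one led by Sprr1a (45.6%). It also kept an atrial-like cluster (24, 0 and 4 wells) and a cluster without a name in which 5 of 14 endothelial markers passed, Vwf among its leading genes (25, 14 and 9 wells).

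The 35 genes took 14.6% of all nuclear-gene counts in the compartment on day 1, 13% on day 2 and 15% on day 3. Day 2 was the lowest library for each complex. Complex III summed to 25500, 23998 and 27409 CPM on days 1, 2 and 3. Complex IV, the largest share, summed to 67603, 58200 and 68169 CPM. Complex V summed to 49396, 44918 and 50309 CPM. These differences between libraries were small beside the spread of wells within a library: the quartiles of day 2 wells ran from 108027 to 148776 CPM for the 35 genes together, a range that holds the day 1 median of 142738 CPM and the day 3 median of 144396 CPM.

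**Figure D1:**
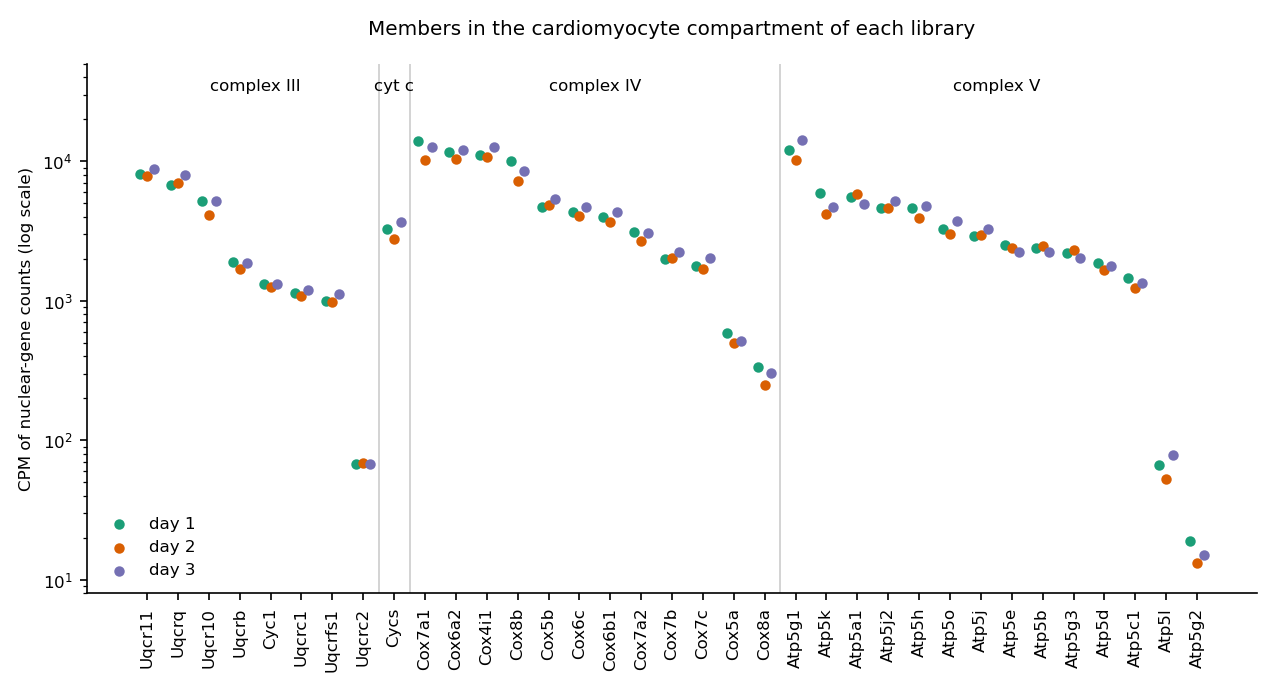
CPM of nuclear-gene counts (log scale) of each of the 35 genes in the cardiomyocyte compartment, with 1 point per library (day 1, 548 wells; day 2, 605; day 3, 888), grouped by complex in falling order. Most genes lie between 1000 and 14130 CPM with the 3 libraries close together, and Uqcrc2, Atp5l and Atp5g2 lie under 100 CPM.

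Among complex III genes, Uqcr11, a small peripheral subunit, had the most counts, at 8121, 7858 and 8779 CPM on days 1 to 3. The other small subunits Uqcrq and Uqcr10 followed, with Uqcrq at 6792, 6945 and 7902 CPM. Of the subunits that carry out electron transfer, Cyc1, the cytochrome c1 haem protein, stood at 1325, 1259 and 1312 CPM, and Uqcrfs1, the Rieske iron-sulphur protein, at 1003, 984 and 1116 CPM. Of the 2 core proteins, Uqcrc1 stood at 1145, 1076 and 1194 CPM and Uqcrc2 at 67.8, 68.3 and 68.0 CPM. Uqcrc2 was thus at nearly one level in the 3 libraries. On the scale of CPM per kb of exon, on which genes can be set side by side, day 1 gave 12670 for Uqcr11, 8839 for Uqcr10, 3709 for Uqcrq and 2150 for Uqcrb, and 27 for Uqcrc2. Whether the reads come from the whole transcript or from its 3' end is not given in the sources used here, which limits any comparison of levels between genes. Cycs stood at 3242, 2791 and 3648 CPM.

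Complex IV was led per kb of exon by subunits known as heart and muscle isoforms: on day 1 Cox8b stood at 28045, Cox7a1 at 26216 and Cox6a2 at 17195 CPM per kb, beside 7095 for Cox4i1, the common isoform of the regulatory subunit. In CPM, Cox7a1 stood at 14026, 10181 and 12556 CPM on days 1 to 3, Cox6a2 at 11693, 10415 and 11957, and Cox8b at 10096, 7193 and 8475. Cox4i1 stood at 10998, 10653 and 12613 CPM. All 3 of the heart and muscle isoforms were lowest on day 2, but this did not set them apart. Cox4i1 was also lowest on day 2, though it differed little between days 1 and 2. The isoforms paired with Cox7a1 and Cox8b were lowest on day 2 as well. Cox7a2 stood at 3114, 2676 and 3079 CPM on days 1 to 3, and Cox8a at 335, 248 and 301 CPM. Day 2 was the lowest library for 26 members in all. Cox5b, Cox6c and Cox6b1 ranged from 3689 to 5394 CPM over the 3 libraries. Cox7b and Cox7c, further small membrane subunits, ranged from 1693 to 2233 CPM. Cox5a stood at 582, 499 and 512 CPM.

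In complex V the gene with the most counts was Atp5g1, one of 3 genes for the c subunit of the rotating ring, at 11972, 10256 and 14130 CPM on days 1 to 3. In the F1 head, Atp5a1 for the alpha subunit stood at 5570, 5823 and 4912 CPM and Atp5b for the catalytic beta subunit at 2374, 2465 and 2241 CPM, so that both were highest on day 2, the opposite of most members. The central stalk genes Atp5c1 (gamma) and Atp5d (delta) stood at 1448, 1240 and 1340 CPM and at 1853, 1668 and 1761 CPM. Atp5o, which encodes the OSCP subunit joining the head to the outer stalk, stood at 3272, 2998 and 3729 CPM. Atp5h, Atp5j and Atp5j2, of the outer stalk and membrane part, and Atp5k and Atp5e ranged from 2224 to 5959 CPM over the libraries. Atp5l was listed at 66.2, 52.5 and 78.9 CPM, and Atp5g2 at 19.0, 13.3 and 14.9 CPM, with 1 well holding 14.8% of the Atp5g2 counts of day 3.

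Some levels are uncertain because other genes share sequence with a member. In the mouse transcript annotation, 13 of the 35 genes had at least 1 other gene matching over 200 or more bases at 95% identity or more; Atp5l had 9 such genes, 8 of them pseudogenes, and Cycs and Atp5h had 4 each. Exons of 2 members, Atp5g2 and Atp5o, overlapped another identifier on the same strand and exons of 11 members a gene on the other strand. The largest overlaps on the other strand were 35.6% of the exon length of Atp5o and 19.7% of that of Uqcrc2. The genes overlapping Atp5o include a second identifier of that symbol. The strand setting of the counting is not given in the sources used here. The symbol Atp5o belongs to 2 identifiers; the one whose start lies in the RefSeq promoter window was used, and the other had no counts in any library. The part of shared sequence in the low levels of Atp5l, Uqcrc2 and Atp5g2 was not tested.

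Between libraries, the members sat lower on day 2 than on day 1, by a median of 0.12 on the log2 scale, while the 6485 genes tested sat higher by a median of 0.15. On day 2, 27 of the 35 members were lower than on day 1 and 8 higher. A member was counted as called where its ratio was 0.32 or more from 0 on the log2 scale. No member was called higher and 7 were called lower, beside 35% and 15.4% of all genes tested. The 3 lowest were Atp5g2 at −0.51, Atp5k, a small membrane subunit of ATP synthase, at −0.50, and Cox8b at −0.49 (95% counting intervals −0.60 to −0.43, −0.51 to −0.50 and −0.49 to −0.49). The 3 highest, Atp5g3, Atp5a1 and Atp5b, lay at 0.07, 0.06 and 0.05. The medians were −0.06 for complex III, −0.14 for complex IV and −0.14 for complex V.

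On day 3 the members were near their day 1 level, with a median log2 ratio of 0.03 beside −0.12 for the 6192 genes tested. On day 3, 20 of the 35 were higher and 15 lower. None was called higher and 2, Atp5k at −0.35 and Atp5g2 at −0.35, were called lower, beside 20.8% and 35.4% of all genes tested. Atp5l (0.25), Atp5g1 (0.24) and Uqcrq (0.22) were the 3 highest, and Cox8b (−0.25) was the third lowest.

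Against day 2, day 3 held more of nearly every member: 30 of 35 were higher, with a median log2 ratio of 0.17 beside −0.26 for the 6337 genes tested. In all, 4 members were called higher, beside 14.4% of all genes tested, and none was called lower, beside 45.7%. The 4 were Atp5l (0.59), Atp5g1 (0.46), Cycs (0.39) and Uqcr10 (0.33). All 12 complex IV genes were higher on day 3, between 0.04 for Cox5a and 0.30 for Cox7a1. The 5 members lower on day 3 were Atp5a1 at −0.25, Atp5g3 at −0.18, Atp5b at −0.14, Atp5e at −0.11 and Uqcrc2 at −0.01. Over the 3 libraries day 2 was the lowest for 26 members and day 3 the highest for 19. The 3 comparisons share libraries and are not independent of each other. The counts of calls depend on the scale: with median-of-ratios size factors 7 members were called higher on day 3 than on day 1 and 27 higher than on day 2, and with mitochondrial counts in the total 23 and 31. Both scales move the log2 ratios of all genes in a comparison by the same amount. The share of all genes called on them is not given here.

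**Figure D2:**
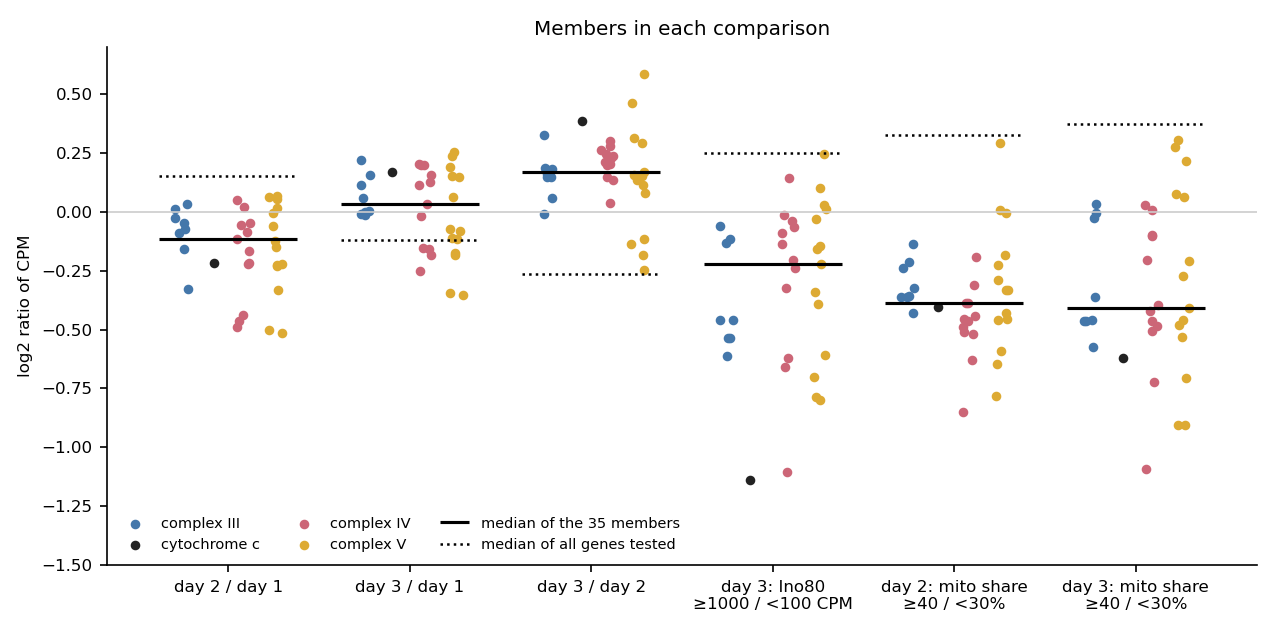
Log2 ratio of CPM for each of the 35 genes (points, coloured by complex) in 3 comparisons between libraries and 3 within a library, with the median of the members (solid line) and of all genes tested (dotted line). The members' median lies under that of all genes for day 2 against day 1 and for the 3 comparisons within a library, and over it for the 2 comparisons of day 3 with the other days.

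The libraries also differed in how much of each well's RNA came from mitochondrial DNA. The median mitochondrial share of a compartment well was 40.8% on day 1, 44.6% on day 2 and 21.3% on day 3, and the mitochondrially encoded partners were highest on day 2, where most nuclear members were lowest. mt-Co1, the catalytic core of complex IV, gave 0.490, 0.744 and 0.237 counts per count of nuclear complex IV genes on days 1 to 3. mt-Cytb, the mitochondrially encoded cytochrome b of complex III, gave 3.06, 4.37 and 1.79 counts per count of nuclear complex III genes. Other mitochondrial partners could not be used: mt-Co2, mt-Co3, mt-Atp6 and mt-Atp8 were each listed below 1 CPM of all counts in the 3 compartments.

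Within a library, wells with a larger mitochondrial share held less of the nuclear members. On day 1 the 35 genes summed to 152222 CPM in wells with a share of 30 to 40% (236 wells), 142837 at 40 to 50% (238 wells) and 110026 at 50% or more (61 wells). On day 2 they summed to 153499 CPM at 20 to 30% (149 wells), 132222 at 30 to 40% (57 wells), 120131 at 40 to 50% (253 wells) and 112264 at 50% or more (138 wells). On day 3 they summed to 153019 CPM under 20% (336 wells), 152377 at 20 to 30% (392 wells), 130203 at 30 to 40% (94 wells), 121232 at 40 to 50% (43 wells) and 117439 at 50% or more (23 wells). In these bins each step to a higher share came with a lower sum, though the first step on day 3 was small. Bins of 1 and 12 wells on day 1 and 8 wells on day 2, all at lower shares, were left out. The scale counts nuclear genes only, so the mitochondrial counts do not enter the total.

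**Figure D3:**
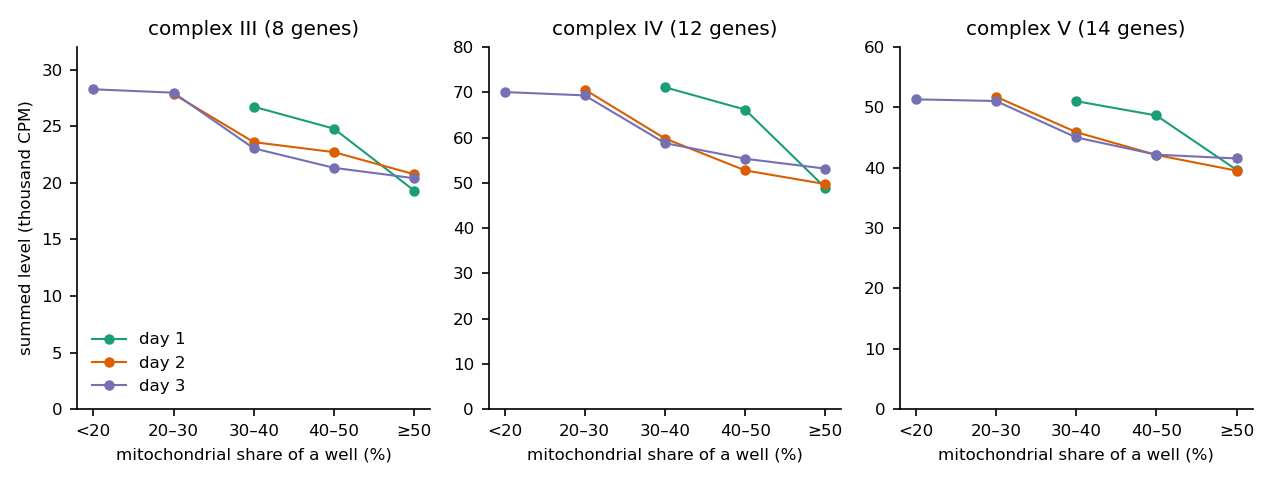
Summed level of the complex III, IV and V genes (in units of 1000 CPM of nuclear-gene counts, axis from 0) in compartment wells binned by their mitochondrial share, 1 line per library; bins with fewer than 20 wells are left out. In each library all 3 complexes are lower in the bin of highest share than in that of lowest share, and day 2 goes from 70588 to 49709 CPM for complex IV.

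On day 2, 391 wells with a share of at least 40% were set against 157 wells under 30%. The median log2 ratio of the members was −0.39, beside 0.32 for the 6438 genes tested. Of the 35 members, 33 were lower in the high-share wells; 24 were called lower and none higher, beside 19.7% and 50.1% of all genes tested. Cox5a, a nuclear subunit that sits on the matrix side of complex IV, went from 716 to 397 CPM (−0.85). Atp5l (−0.78) and Atp5g1, from 13551 to 8657 CPM (−0.65), followed. Atp5a1 was on the other side at 0.29, from 5042 to 6175 CPM, with Atp5b at 0.01 and Atp5g3 at −0.01.

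On day 3, 66 wells with at least 40% were set against 728 under 30%, with a median log2 ratio of −0.41 beside 0.37 for the 6236 genes tested. In all, 20 members were called lower and none higher, beside 20.9% and 52.4% of all genes tested. Cox5a again lay lowest at −1.09, followed by Atp5g2 and Atp5g1 at −0.91 each. The 3 highest were Atp5g3 at 0.31, Atp5a1 at 0.28 and Atp5b at 0.22. In both libraries the 3 highest members were therefore the alpha and beta genes of the F1 head and the c-subunit gene Atp5g3. Other measures differed between these wells: Ino80 stood at 6972 CPM in the high-share and 2292 CPM in the low-share wells of day 2, and at 2074 and 1105 CPM on day 3, and the summed ventricular cardiomyocyte markers at 129717 and 112827 CPM on day 2 and 132473 and 117591 CPM on day 3. On day 2 the 13 lymphocyte markers summed to 747 CPM in the high-share and 8.77 CPM in the low-share wells (4 and 5 of them at 0), the 7 erythroid markers to 539 and 209 CPM (1 and 3 at 0), and the 14 endothelial markers to 954 and 664 CPM (none at 0). The lymphocyte sum of the high-share wells came from a minority of wells. Their median was 4.77 CPM and their upper quartile 10.8 CPM, beside 1.40 and 6.37 CPM in the low-share wells. On day 3 the erythroid markers summed to 64.1 and 226 CPM (3 and none at 0), the endothelial markers to 569 and 898 CPM and the 11 fibroblast markers to 142 and 255 CPM (none at 0 in either list). Their part in the result was not tested. Day 1 had only 13 wells under 30% and was not compared in this way.

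Matching the share between libraries altered the day comparisons. Among wells with 25 to 35% mitochondrial counts (81 on day 1, 104 on day 2 and 134 on day 3), the members' median log2 ratio was 0.01 for day 2 to day 1, −0.12 for day 3 to day 1 and −0.13 for day 3 to day 2, beside 0.05, 0.05 and −0.03 for all genes. Each of these 3 medians has the opposite sign to the value over all compartment wells. The wells in this window are a small and unequal part of each library, since most day 3 wells lie under it and most day 1 and day 2 wells over it.

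On day 3 the wells divided by their Ino80 count. Ino80 is the ATPase of the INO80 chromatin remodelling complex and the gene named in the labels. In the compartment, 393 wells had at least 1000 CPM of Ino80 (3045 CPM together), 448 wells had under 100 CPM (18.1 CPM together) and 47 lay between. This division was made on a measured value and is not the genotype: no source used here ties a well to D3_INO80_OE or D3_Ctrl. It nearly coincided with 2 expression clusters, since 99.2% of the wells with at least 1000 CPM lay in one and 96.7% of those under 100 CPM in another. The median mitochondrial share was 19.7% and 22.3%, and the median count per well 307645 and 438362.

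The members sat lower in the Ino80-rich wells, with a median log2 ratio of −0.22, while all 6013 genes tested had a median of 0.25. Of the 35, 30 were lower. Among them 15 were called lower and none higher, beside 27.9% and 47.3% of all genes tested. Within wells of 15 to 25% mitochondrial share (295 and 307 wells) the members' median was −0.24. The median shares of the 2 groups, 19.7% and 22.3%, already lay inside this window. The part of the mitochondrial share in the difference was not tested. The size depends on the scale: with median-of-ratios size factors, which put the median of all genes at −0.33, the members' median was −0.80 and all 35 were called lower. That scale moved all genes by the same amount, and the share of all genes called lower on it is not given here. The summed ventricular cardiomyocyte markers differed more than the members did, at 82245 CPM in the Ino80-rich and 143480 CPM in the Ino80-poor wells, with quartiles of the wells at 75234 to 88092 and 133545 to 156379 CPM and none of the 14 markers at 0. The 12 macrophage markers summed to 219 and 55.8 CPM and the 14 endothelial markers to 1270 and 582 CPM, again with none at 0. The atrial markers summed to 2547 and 1077 CPM, with quartiles of the wells at 919 to 2275 and 292 to 908 CPM and none at 0. The erythroid markers summed to 364 and 117 CPM (2 of 7 at 0 in the Ino80-rich wells), the lymphocyte markers to 26.8 and 3.39 CPM (2 of 13 at 0 in each) and the fibroblast markers to 269 and 242 CPM. For the lymphocyte markers the upper quartile of the wells was 0 CPM in both groups. The part of these differences in the members' result was not tested.

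The mobile carrier and one complex IV isoform showed the largest differences. Cycs stood at 2112 CPM in the Ino80-rich wells (quartiles of the wells 1416 to 2399) and at 4646 CPM in the Ino80-poor wells (3588 to 5143), a log2 ratio of −1.14 (95% counting interval −1.14 to −1.13). Cox7a2, the isoform of subunit 7a found in most tissues, stood at 1808 CPM (1198 to 2219) and 3894 CPM (2921 to 4552), a log2 ratio of −1.11 (−1.11 to −1.10). For both genes, named here for their large differences, the quartile ranges of the 2 groups of wells did not overlap. The same held for the summed ventricular cardiomyocyte and atrial markers. How many of all genes it held for was not counted. Cox8b, by contrast, stood at 8465 CPM (7110 to 9486) and 8538 CPM (7218 to 9617), with almost the same range on both sides.

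**Figure D4:**
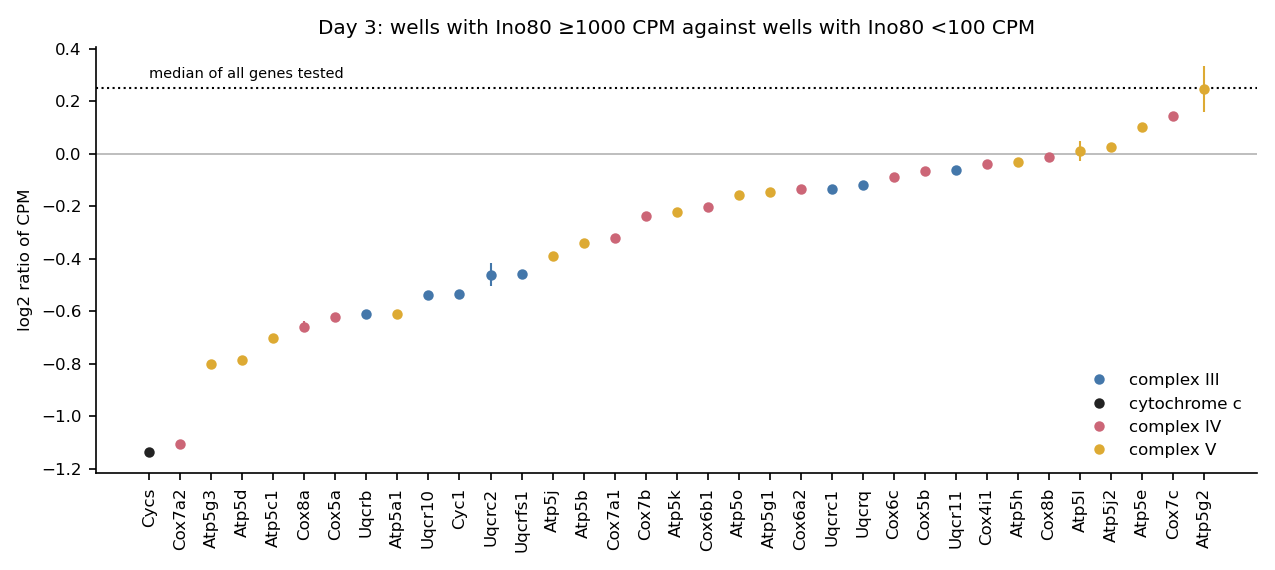
Log2 ratio of CPM in 393 wells with at least 1000 CPM of Ino80 to 448 wells with under 100 CPM on day 3, for each member in rising order, coloured by complex; bars are 95% counting intervals, mostly smaller than the points, and the dotted line is the median of all genes tested (0.25). The genes run from −1.14 for Cycs to 0.25 for Atp5g2, and 30 of 35 lie below 0.

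All 8 complex III genes were lower in the Ino80-rich wells, with a median of −0.46, but by unequal amounts. Uqcrb at −0.61, Uqcr10 at −0.54, Cyc1 at −0.53, Uqcrc2 at −0.46 and Uqcrfs1 at −0.46 formed a lower group. Uqcrc1 at −0.13, Uqcrq at −0.12 and Uqcr11 at −0.06 stayed near 0. Genes of one complex therefore did not share one ratio, and the same held for complexes IV and V. In complex IV (median −0.17), Cox7a2 was followed by Cox8a at −0.66 and Cox5a at −0.62, whereas Cox4i1 (−0.04), Cox5b (−0.07) and Cox6c (−0.09) were almost level and Cox7c was at 0.14. Cox7b, Cox6b1 and Cox6a2 lay between, at −0.24, −0.20 and −0.14. Cox7a1, at 10929 and 13661 CPM, lay at the threshold, at −0.32, but just short of a call.

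In complex V (median −0.19) the c-subunit gene Atp5g3 was lowest, at 1388 and 2419 CPM (−0.80). Atp5d at −0.79, Atp5c1 at −0.70, Atp5a1 at −0.61 and Atp5b at −0.34, which encode the delta, gamma, alpha and beta subunits of the F1 part, were all lower. The epsilon gene Atp5e was at 0.10. Atp5j, of the outer stalk, was at −0.39, and Atp5g1, Atp5h, Atp5o and Atp5k lay between −0.22 and −0.03. Atp5j2 and Atp5l were at 0.03 and 0.01, and Atp5g2, at 16.7 and 14.1 CPM, was the highest member at 0.25. Atp5a1, Atp5b and Atp5g3 thus lay on opposite sides in the 2 divisions of day 3 wells: above 0 in wells with a high mitochondrial share and below 0 in wells rich in Ino80.

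The Ino80-poor wells of day 3 were also set beside the earlier libraries. The members' median log2 ratio was 0.16 against day 1 and 0.25 against day 2, with 30 and 32 of 35 higher, beside medians of −0.24 and −0.42 for all genes. For the Ino80-rich wells the medians were −0.14 and 0.01, with 12 and 18 of 35 higher, beside −0.04 and −0.19. All 4 values share wells with each other and with the day 3 comparisons above.

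The isoform pairs were compared per kb of exon. Cox7a1 exceeded Cox7a2 by 2.99, 2.75 and 2.85 on the log2 scale on days 1 to 3, and by 3.42 in the Ino80-rich and 2.63 in the Ino80-poor wells of day 3. Cox8b exceeded Cox8a by 5.69, 5.64 and 5.60, and by 6.04 and 5.40 in the same 2 groups of wells. Between these groups Cox7a2 and Cox8a differed by −1.11 and −0.66, Cox7a1 by −0.32 and Cox8b by −0.01. Cox6a2 exceeded Cox6a1, the common isoform, by 7.15, 6.74 and 5.88. Cox6a1, which is no member of the list, stood at 84.9, 101 and 210 CPM on days 1 to 3, while Cox6a2 varied little. Between the 2 groups of day 3 wells that ratio was 5.88 on both sides. Among the c-subunit genes, whose mature proteins are identical, Atp5g1 exceeded Atp5g3 by 1.28, 0.99 and 1.64, and by 2.09 in the Ino80-rich and 1.44 in the Ino80-poor wells. On counts, without exon length, Atp5g1 exceeded Atp5g3 by 2.45, 2.16 and 2.81 on days 1 to 3, and by 3.26 and 2.61 in these groups.

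**Figure D5:**
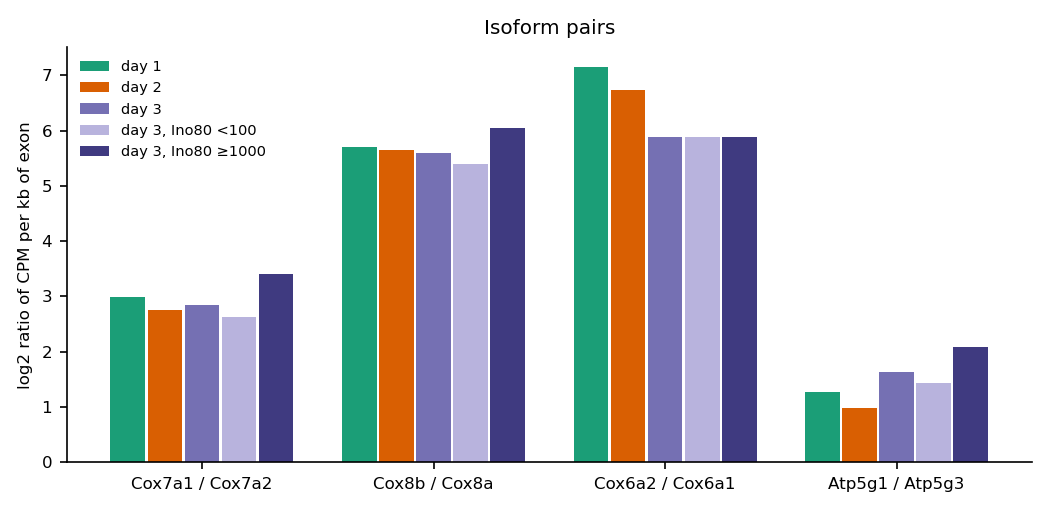
Log2 ratio of CPM per kb of exon between isoforms (bars from 0) in the 3 libraries and in the 2 groups of day 3 wells divided by Ino80; 4 pairs are shown and no replicate error exists. For Cox7a1 to Cox7a2, Cox8b to Cox8a and Atp5g1 to Atp5g3 the Ino80-rich wells have the highest ratio of the 5 groups.

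The promoters of the Cox7a1 and Cox7a2 pair and the Cox8b and Cox8a pair are shown, since the results on isoforms turn on these pairs. The number of CpG dinucleotides in each is given as a description. RefSeq windows of GRCm38.p6, from 250 bases before to 50 after the start, were found for 27 of the 35 genes. Over all 32851 windows of this length the median number of CpG dinucleotides was 7, and over the 30 windows of the members used here it was 18.5. Capitals below mark each CpG. The Cox7a1 window (chr7:30183921-30184220, plus strand) held 7, the Cox7a2 window (chr9:79759804-79760103, minus strand) 20, the Cox8b window (chr7:140900397-140900696, minus strand) 2 and the Cox8a window (chr19:7217567-7217866, minus strand) 19.
Cox7a1: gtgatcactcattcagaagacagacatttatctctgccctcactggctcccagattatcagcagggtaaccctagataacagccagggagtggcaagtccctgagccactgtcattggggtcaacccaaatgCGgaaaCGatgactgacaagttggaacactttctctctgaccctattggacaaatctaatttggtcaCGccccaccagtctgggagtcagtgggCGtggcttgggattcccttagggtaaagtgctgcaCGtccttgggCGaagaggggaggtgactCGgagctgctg
Cox7a2: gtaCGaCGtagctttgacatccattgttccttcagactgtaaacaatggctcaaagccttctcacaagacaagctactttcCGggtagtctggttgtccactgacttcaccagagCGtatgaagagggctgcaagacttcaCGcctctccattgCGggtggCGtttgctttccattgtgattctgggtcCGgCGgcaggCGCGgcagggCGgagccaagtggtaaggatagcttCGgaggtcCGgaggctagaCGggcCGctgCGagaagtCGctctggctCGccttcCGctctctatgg
Cox8b: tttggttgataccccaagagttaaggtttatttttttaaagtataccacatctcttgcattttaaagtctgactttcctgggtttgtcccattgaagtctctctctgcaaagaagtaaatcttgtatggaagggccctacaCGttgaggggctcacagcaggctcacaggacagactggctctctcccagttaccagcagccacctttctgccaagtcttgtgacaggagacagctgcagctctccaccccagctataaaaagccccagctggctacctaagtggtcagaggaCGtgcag
Cox8a: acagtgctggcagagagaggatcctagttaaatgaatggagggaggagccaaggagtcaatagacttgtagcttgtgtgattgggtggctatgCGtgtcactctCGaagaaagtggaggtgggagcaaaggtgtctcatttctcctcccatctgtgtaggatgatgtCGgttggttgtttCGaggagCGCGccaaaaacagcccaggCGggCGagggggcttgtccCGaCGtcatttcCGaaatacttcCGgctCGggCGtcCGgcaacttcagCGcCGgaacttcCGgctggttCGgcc

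The motifs of factors known to act on respiratory genes or in muscle were searched on both strands in the same windows, with an N standing for any base. The NRF1 motif GCGCANGCGC was in the windows of 7 of 27 members and 4.6% of all windows. The ETS motif CCGGAAG, as bound by GABP, was in 8 of 27 and 8.86%, the YY1 motif AAGATGGCG in 2 of 27 and 1.40%, the cyclic AMP response element TGACGTCA in 2 of 27 and 1.79%, and the oestrogen-related receptor motif TNAAGGTCA in 1 of 27 and 1.28%. The MEF2 motif was in none of 27 and in 3.19% of all windows. Members were counted by gene, some with more than 1 window, and all windows singly, so the shares are not on one footing. All windows also held fewer CpG dinucleotides, a median of 7 beside 18.5, and the NRF1, ETS, YY1 and cyclic AMP motifs contain CG. Whether the motifs are more frequent in the members beyond this was not tested. The windows of the 2 members lowest in the Ino80-rich wells among those with a match are shown with the matches in capitals: Cycs (chr6:50566520-50566819, minus strand), with a cyclic AMP response element starting 169 bases before the start, and Atp5g3 (chr2:73911277-73911576, minus strand), the only member with the oestrogen-related receptor motif, which starts 52 bases before the start, and with an NRF1 motif at base 13 of the transcript. A match is a description of letters and not a bound site.
Cycs: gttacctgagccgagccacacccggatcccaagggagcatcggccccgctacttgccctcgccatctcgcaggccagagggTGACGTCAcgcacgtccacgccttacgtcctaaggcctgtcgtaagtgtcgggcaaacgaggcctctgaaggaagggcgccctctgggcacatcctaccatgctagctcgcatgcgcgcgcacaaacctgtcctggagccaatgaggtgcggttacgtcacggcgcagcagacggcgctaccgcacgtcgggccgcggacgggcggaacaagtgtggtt
Atp5g3: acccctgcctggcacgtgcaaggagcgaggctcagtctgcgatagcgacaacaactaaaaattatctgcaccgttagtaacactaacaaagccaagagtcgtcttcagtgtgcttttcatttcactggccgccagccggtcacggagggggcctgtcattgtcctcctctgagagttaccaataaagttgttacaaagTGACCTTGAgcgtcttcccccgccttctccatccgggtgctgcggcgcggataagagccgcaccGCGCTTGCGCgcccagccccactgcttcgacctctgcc

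Genes known to regulate respiratory gene transcription were unequal between the 2 groups of day 3 wells. Ppargc1a, the coactivator PGC-1 alpha, stood at 14.2 CPM in the Ino80-rich and 98.8 CPM in the Ino80-poor wells, a log2 ratio of −2.80. Ppargc1b, its relative, was at −1.92, and the oestrogen-related receptors Esrrg and Esrra at −3.03 and −1.08, at levels of 1.41 to 11.5 CPM. Tfam, a transcription factor and packaging protein of mitochondrial DNA, was at −1.10, while Nrf1 and Gabpa, at 8.63 to 11.0 CPM, were at 0.31 and 0.07. Exons of Gabpa overlap 397 bases of Atp5j on the other strand, so its counts are uncertain. Of 15 regulators listed, 12 had enough counts, with 8 lower, all 8 by enough to be called, and a median of −1.24, beside 27.9% of all genes called lower and a median of 0.25. The regulators and the lists that follow needed a mean of 5 CPM, but all genes tested needed 10 CPM, so the thresholds differ. Of 33 assembly factors 28 had enough counts, with 21 lower and a median of −0.64. The list of other subunits and isoforms had a median of −0.39 over 11 genes, complex I of −0.26 over 36 genes and complex II of −0.80 over 4 genes. Cytosolic ribosomal protein genes were on the other side, with 74 of 75 higher and a median of 1.0. In wells with a high mitochondrial share the regulators had a median of 0.84 on day 2, with 8 of 11 higher. On day 3 it was 0.70, with 10 of 12 higher. All genes tested had medians of 0.32 and 0.37, with 4256 of 6438 and 4175 of 6236 higher. The members' medians were below 0.

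Across wells, the summed levels of the 3 complexes varied together. Pearson's r between the log2 sums of complexes III and IV was 0.80, 0.79 and 0.68 on days 1 to 3, and between complexes IV and V 0.84, 0.82 and 0.78, over 548, 605 and 888 wells. Complex IV with complex I gave 0.86, 0.88 and 0.78. These points share a library and a denominator, and after thinning each well to 30000 counts the values for complexes III and IV were 0.78, 0.77 and 0.75. A single member's level and the sum of the others gave a median r of 0.51, 0.51 and 0.42 on days 1 to 3. The highest values were 0.77, 0.76 and 0.64. Atp5a1 was lowest in each library, at −0.08, −0.30 and 0.09. The members' sum and the mitochondrial share gave r of −0.41, −0.56 and −0.43. The members' sum and the cytosolic ribosomal proteins gave 0.38 and 0.43 on days 1 and 2 and −0.24 on day 3, and 0.29 and 0.32 within the Ino80-rich and Ino80-poor wells of day 3.

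The comparisons were also made in wells of other named cell types. The members together stood at 120474, 112688 and 140585 CPM in macrophage-like wells (100, 82 and 79 wells) and at 131363, 118496 and 133474 CPM in fibroblast-like wells (143, 123 and 77 wells) on days 1 to 3, lowest on day 2 as in the compartment. In endothelial-like wells (417 on day 1 and 217 on day 2) they stood at 147908 and 141022 CPM. The members' median log2 ratio for day 2 to day 1 was −0.02 in macrophage-like wells (15 members higher, 20 lower). It was −0.04 in fibroblast-like (12 higher, 23 lower) and −0.04 in endothelial-like wells (14 higher, 21 lower). All genes had medians of 0.04, 0.12 and 0.04 in these classes. For day 3 to day 1 the members' median was 0.25 in macrophage-like wells, where 26 members were higher and all genes had a median of −0.16. In fibroblast-like wells it was 0.09, where 21 were higher and all genes had a median of −0.05. For day 3 to day 2 the members' medians were 0.26 and 0.13 in these 2 classes, with 32 and 28 members higher. All genes had medians of −0.22 and −0.18. Differences between the cell classes were not tested. Cox7a1, a heart and muscle isoform, stood at 11402, 8464 and 11153 CPM in the macrophage-like wells. In day 3 macrophage-like wells, 41 with at least 1000 CPM of Ino80 against 30 with under 100 CPM gave a median log2 ratio of the members of −0.41, with Cox7a2 at −1.44 and Cycs at −1.27. In fibroblast-like wells, 32 against 38, the median was −0.46, with Cox7a2 at −1.0 and Cycs at −1.14. In each of these 2 classes 32 of the 35 members were lower, while the median of all genes was 0.41 in macrophage-like and 0.46 in fibroblast-like wells. Myh6 lay at 82.5% of its compartment level in day 3 fibroblast-like wells. How much of the members' RNA in any well came from its own cell was not tested.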

How the data were processed

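Per the labels' protocols, single live cells were chosen by imaging on the iCELL8 platform and sequenced paired-end. Per the submitters' processing notes, the authors used cutadapt, STAR and featureCounts with mm10; no version, strand setting or treatment of reads shared between genes is given in the sources used here. The authors deposited 1 table of whole-number counts per gene and well for each library. From these counts, wells with under 1000 counts or 300 genes were left out (1225, 1059 and 1092 kept), the rest were clustered without the 35 genes (Leiden, scanpy 1.11.5), and clusters were named where at least 3 markers and 50% of a list passed. No doublet caller was run. The resolution of 0.8, the naming thresholds and the comparisons in other cell classes were set after seeing the data, and the genes and lists were chosen with earlier results of these data known. Counts of the remaining wells were summed and divided by the nuclear-gene total. Members and the genes of the other lists needed a mean of 5 CPM and all genes 10 CPM; a call is a log2 ratio at least 0.32 from 0. With 1 library per day no test was possible and only 95% exact counting intervals are given, which leave out PCR duplication, since no molecular identifiers are mentioned. In each comparison the 3 highest and 3 lowest members were named, also the isoform pairs and Cycs. Counts were simulated for day 2 to day 1 over 6485 genes with counting error only (Poisson draws). Of the 6285 unchanged genes, 95.3% lay inside their interval. This checks the calculation only, since the simulation holds no spread between wells or libraries and no PCR duplication. Coordinates are those of GRCm38.p6, the build called mm10.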

Additional observations from a re-analysis of the deposited data

How the results depend on the processing

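No paired analysis was possible because each day is 1 library and the replicate numbers come only from accession order, and no replicate was left out for the same reason. Of the medians and counts of calls under the alternatives, 153 kept their direction and size, 38 moved, 21 became stronger, 19 became weaker and 3, all medians between days in wells with a like mitochondrial share, changed sign. Of the single isoform values 33 moved and 15 did not. No day has a replicate library. Of the members, Atp5g2 had the fewest counts, at 19.0, 13.3 and 14.9 CPM. Where a value moved, the cause was not tested. Counts below are of members called higher or lower. The share of all genes called under each alternative is not given here. The counts therefore show only how the members' own calls moved with the processing.

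With mitochondrial counts in the total, the medians were −0.14 for day 2 to day 1, 0.40 for day 3 to day 1, 0.56 for day 3 to day 2, −0.20 for the day 3 Ino80 division, −0.94 for the day 2 mitochondrial share and −0.99 for the day 3 mitochondrial share; members numbered 23 called higher for day 3 to day 1, 31 called higher for day 3 to day 2, 0 called lower for day 3 to day 1 and 33 called lower for the day 3 mitochondrial share. Median-of-ratios size factors were used next, and the medians were −0.17 for day 2 to day 1, 0.18 for day 3 to day 1, 0.39 for day 3 to day 2, −0.80 for the day 3 Ino80 division, −0.72 for the day 2 mitochondrial share and −0.71 for the day 3 mitochondrial share; members numbered 7 called higher for day 3 to day 1, 27 called higher for day 3 to day 2, 0 called lower for day 3 to day 1 and 35 called lower for the day 3 Ino80 division. For the mean of per-well CPM, the medians were −0.12 for day 2 to day 1, 0.14 for day 3 to day 2, −0.40 for the day 2 mitochondrial share and −0.38 for the day 3 mitochondrial share; members numbered 2 called higher for day 3 to day 2, 1 called higher for the day 2 mitochondrial share, 2 called higher for the day 3 mitochondrial share and 1 called lower for day 3 to day 1. Over all kept wells, the medians were −0.0795 for day 2 to day 1, 0.0628 for day 3 to day 1, 0.15 for day 3 to day 2, −0.24 for the day 3 Ino80 division and −0.35 for the day 2 mitochondrial share; members numbered 1 called higher for the day 2 mitochondrial share, 1 called higher for the day 3 mitochondrial share and 1 called lower for day 3 to day 1. After thinning wells to 30000 counts, the medians were −0.10 for day 2 to day 1, 0.12 for day 3 to day 2 and −0.38 for the day 3 mitochondrial share; members numbered 2 called higher for day 3 to day 2, 1 called higher for the day 2 mitochondrial share, 2 called higher for the day 3 mitochondrial share, 4 called lower for day 2 to day 1 and 0 called lower for day 3 to day 1. At a minimum mean of 50 CPM, the medians were −0.10 for day 2 to day 1, 0.0461 for day 3 to day 1 and −0.23 for the day 3 Ino80 division; members numbered 1 called lower for day 3 to day 1. At 1.5-fold, members numbered 1 called higher for day 3 to day 2, 0 called lower for day 2 to day 1, 0 called lower for day 3 to day 1, 9 called lower for the day 3 Ino80 division, 5 called lower for the day 2 mitochondrial share and 6 called lower for the day 3 mitochondrial share. In wells with 25 to 35% mitochondrial counts, the medians were 0.0077 for day 2 to day 1, −0.12 for day 3 to day 1 and −0.13 for day 3 to day 2; members numbered 0 called higher for day 3 to day 2, 2 called lower for day 2 to day 1, 6 called lower for day 3 to day 1 and 5 called lower for day 3 to day 2. Without atrial-like wells, the median was 0.0245 for day 3 to day 1; members numbered 1 called higher for day 3 to day 1. Among wells with 15 to 25% mitochondrial counts, the median was −0.24 for the day 3 Ino80 division. At mitochondrial shares of 45 and 25%, the median was −0.41 for the day 2 mitochondrial share; members numbered 1 called higher for the day 2 mitochondrial share and 2 called higher for the day 3 mitochondrial share. The last alternatives were chosen after seeing the data. With the members kept in the clustered table, the medians were −0.0992 for day 2 to day 1, 0.15 for day 3 to day 2 and −0.36 for the day 2 mitochondrial share; members numbered 1 called higher for the day 2 mitochondrial share and 1 called lower for day 3 to day 1. None of the members was among the 2000 variable genes used there, so this alternative does not show whether they shaped the compartment. Without the cluster that passed endothelial markers, the medians were −0.13 for day 2 to day 1 and 0.16 for day 3 to day 2. Under clustering at resolution 2, the medians were 0.0835 for day 3 to day 1, 0.22 for day 3 to day 2 and −0.48 for the day 3 mitochondrial share; members numbered 1 called higher for day 3 to day 1, 9 called higher for day 3 to day 2, 1 called higher for the day 3 Ino80 division and 1 called lower for day 3 to day 1.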
